A study of Mus musculus with 3 samples.

Results

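A set of 6 marker genes of lymphatic and sinusoidal endothelium, Lyve1, Prox1, Pdpn, Stab1, Stab2 and Reln, were followed through single-cell transcriptomes of adult mouse heart endothelium. They were taken by symbol from the deposited count table, and all 6 were found among 27994 genes. The cells had been sorted from the hearts of female mice aged 12 to 16 weeks as cells that were positive for VE-Cad and CD31 and negative for CD45, CD41, PDGFRB and PDGFRA, and were sequenced either fresh (0 h) or after 24, 48, 72 or 96 h as co-aggregates with Mesp1der PSCs. Those stromal cells were PDGFRA+ DsRed+, lacked PDGFRB, VE-Cad, CD31, CD45 and CD41, and came from E11.5 embryos in which Mesp1–cre had switched on the Z/Red reporter, so DsRed marks descendants of Mesp1-expressing mesoderm rather than 1 cell type. Co-aggregates were kept in IMDM with serum, an interleukin given in the labels only as IL, SCF and Flt3L, and endothelial cells were sorted again for CD31 and VE-Cad and against PDGFRA before all times were mixed into each of pools A, B and C. Cells of both arms and every time are thus in 1 matrix, in which no cell carries a time or a pool. The 7 deposited Leiden clusters, under their own numbers, were the only groups that could be compared, and the 3 library suffixes on the barcodes were given side by side.

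Lymphatic vessels drain tissue fluid and carry immune cells, and sinusoids are wide, leaky capillaries of liver, spleen and marrow that clear waste from blood. Prox1 is the homeobox transcription factor that sets and keeps lymphatic identity, and podoplanin (Pdpn) is the membrane glycoprotein through which lymphatic endothelium binds CLEC-2 on platelets. Lyve1 is a hyaluronan receptor of lymphatic and sinusoidal endothelium and of some tissue macrophages. Stabilin-1 and stabilin-2 (Stab1, Stab2) are scavenger receptors, stabilin-2 the main one for hyaluronan on sinusoids, and stabilin-1 is also made by macrophages. Reelin (Reln) is a secreted glycoprotein that lymphatic endothelium releases. No member is a marker of the blood capillaries that make up most of the endothelium of the heart.

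On GRCm38 all 6 genes lie on the minus strand: Lyve1 at chr7:110850607-110863239, Prox1 at chr1:190118035-190170714, Pdpn at chr4:143267431-143299564, Stab1 at chr14:31139013-31168641, Stab2 at chr10:86841198-87008025 and Reln at chr5:21884454-22344702. Lyve1 and Pdpn overlap no other annotated gene, Prox1 overlaps 2 antisense genes, Stab1 overlaps 1 gene on the opposite strand, Stab2 5 and Reln 7. The sequences just before the RefSeq starts (GRCm38.p6) are shown for 4 members, Prox1, Pdpn, Stab1 and Stab2. The 250 bases before the start were searched for 7 short motifs on both strands. Capitals mark every match in the bases printed, read 5′ to 3′ on the gene's strand. For Stab2 only the 167 bases that lie before both annotated starts are given. Its ETS matches at positions -44 to -23 are therefore counted below but not printed. RefSeq promoters were matched for 5 of the 6 members, all but Lyve1.
Prox1, chr1:190170828-190171077, minus strand: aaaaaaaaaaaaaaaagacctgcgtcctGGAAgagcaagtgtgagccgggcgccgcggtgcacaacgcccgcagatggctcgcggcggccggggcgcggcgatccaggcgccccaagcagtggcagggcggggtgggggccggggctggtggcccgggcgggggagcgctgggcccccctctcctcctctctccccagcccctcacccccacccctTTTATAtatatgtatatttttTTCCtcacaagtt
Pdpn, chr4:143299565-143299814, minus strand: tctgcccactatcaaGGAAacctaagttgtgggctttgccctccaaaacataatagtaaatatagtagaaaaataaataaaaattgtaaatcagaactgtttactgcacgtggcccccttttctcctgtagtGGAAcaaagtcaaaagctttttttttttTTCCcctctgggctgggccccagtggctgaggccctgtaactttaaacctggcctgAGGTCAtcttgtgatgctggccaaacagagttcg
Stab1, chr14:31168642-31168891, minus strand: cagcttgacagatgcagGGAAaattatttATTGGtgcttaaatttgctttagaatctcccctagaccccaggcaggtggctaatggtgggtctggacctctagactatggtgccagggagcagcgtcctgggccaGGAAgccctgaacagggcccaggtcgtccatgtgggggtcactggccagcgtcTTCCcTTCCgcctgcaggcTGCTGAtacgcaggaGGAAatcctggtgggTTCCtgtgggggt
Stab2, chr10:87008026-87008192, minus strand: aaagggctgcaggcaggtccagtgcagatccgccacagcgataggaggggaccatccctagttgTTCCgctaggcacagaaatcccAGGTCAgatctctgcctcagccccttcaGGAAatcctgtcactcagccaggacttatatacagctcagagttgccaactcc
The ETS core GGAA, bound by a factor family that is active in all endothelium, occurred 2 times in Prox1, 3 times in Pdpn, 6 times each in Stab1 and Stab2 and 2 times in Reln. It was present in 93.4% of 27025 promoters of this length, so its presence sets no member apart. TATAAA was read on the reverse strand of Prox1, at position -34 from the start, and was present in 13% of promoters. The half-site of nuclear receptors, AGGTCA, occurred before both Pdpn and Stab2 and was held by 13.8% of all promoters searched. Only Stab1 among the members had the MAF half-site searched, TGCTGA, which 15.8% of promoters held. The CCAAT box was also found before Stab1 alone, on the reverse strand, and stood in 34.5% of promoters. None of the 5 members held the SOX site searched, AACAAT, which was present in 9.65% of promoters. The same was true of the GATA site, searched as AGATAA and present in 10.3%. Guanine and cytosine made up 64.8% of the bases before Prox1, 43.2% before Pdpn, 57.2% before Stab1, 53.2% before Stab2 and 80.0% before Reln, against a median of 52.0% over all promoters.

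The matrix held 9562 cells and 252339042 unique molecular identifiers (UMIs), with a median of 21225.5 UMIs per cell. Clusters 0 to 6 held 728, 799, 5396, 239, 518, 1572 and 310 cells, and their median depth ranged from 7875 UMIs in cluster 1 to 36065.5 in cluster 5. Library suffixes 1, 2 and 3 marked 3507, 3958 and 2097 cells, and 13 barcodes occurred in more than 1 of them. Because the suffixes cannot be tied to pools, the matrix counts as 1 sample: no test was run, and every interval is a 95% interval of counting error only. A level is the number of UMIs of a gene per 10,000 UMIs of the group. Shares of cells are given after 5,000 UMIs had been drawn from each cell, since a deeper cell shows more genes. A level that differs between clusters cannot tell fewer expressing cells from less RNA per cell, and the clusters themselves were made from these counts. Cluster 2 as a whole carried endothelial RNA, with Cdh5 (VE-cadherin) at 4.29 and Emcn (endomucin) at 7.81 UMIs per 10,000, against Cdh5 levels from 0.503 to 0.640 in clusters 3 to 6.

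Lyve1 was high in clusters 5, 2 and 1. It reached 0.215 UMIs per 10,000 in cluster 5 (0.285, 0.217 and 0.131 in library suffixes 1, 2 and 3), 0.188 in cluster 2 (0.213, 0.203 and 0.151) and 0.182 in cluster 1 (0.162, 0.210 and 0.192). The ranges over libraries of these clusters overlapped, so their order is open. Cluster 0 stood apart below them, at 0.0493 with 0.0394 to 0.0548 over libraries, and clusters 6, 4 and 3 followed with 0.0473, 0.0287 and 0.0126. The RNA was held by few cells: in cluster 2, 146 cells with 5 or more Lyve1 UMIs held 69.5% of the gene's UMIs, and the highest cell had 63. In cluster 1, 11 such cells held 74.5%, and in cluster 5, 68 held 86.4%. At 5,000 UMIs, Lyve1 was detected in 5.47% of cluster 2 cells, 5.55% of cluster 5 and 3.62% of cluster 1.

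Prox1 was highest in cluster 2. Its level there was 0.179 UMIs per 10,000 (0.160, 0.215 and 0.165 by library), followed by 0.115 in cluster 1 (0.0591, 0.145 and 0.177) and 0.0735 in cluster 4 (0.0673, 0.127 and 0.0439). Cluster 1 and cluster 2 overlapped in their library ranges, as did cluster 4 and cluster 1. The other clusters lay between 0.0182 and 0.0310. In cluster 2, 150 cells with 5 or more UMIs held 63.5% of the Prox1 RNA, and 6.17% of cells were positive at 5,000 UMIs against 1.72% in cluster 5, the deepest cluster.

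Pdpn and Prox1 did not share their highest cluster. Pdpn led in cluster 3, with 0.496 UMIs per 10,000 (0.599, 0.458 and 0.400 by library), above cluster 4 with 0.241 (0.297, 0.227 and 0.190) and cluster 1 with 0.203 (0.229, 0.215 and 0.158). Library ranges of cluster 3 lay clear of all others, while those of clusters 4 and 1 overlapped. Cluster 2, where Prox1 was highest, had a Pdpn level of only 0.0117, and clusters 0, 5 and 6 had 0.00318, 0.00524 and 0.0158. Pdpn was spread widely in cluster 3, where 20.1% of cells were positive at 5,000 UMIs, and was rare in cluster 2, where 0.577% were. Reln was scarce in every cluster. Its level was highest in cluster 4, at 0.0110, and 102 of its 146 UMIs were in cluster 2, the largest cluster, a level of 0.00726. No neighbours in its order of clusters differed beyond their library ranges.

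The stabilins had unlike patterns. Stab1 was broad over the endothelial clusters, with 1.14 UMIs per 10,000 in cluster 2 (1.09, 1.26 and 1.10 by library), 1.08 in cluster 0 (0.993, 1.20 and 1.06) and 1.04 in cluster 1 (1.10, 1.07 and 0.943), which overlapped. Cluster 5 held 0.876 (0.814, 1.04 and 0.839), and clusters 3, 6 and 4 fell far below with 0.198, 0.135 and 0.118. Stab2 was highest in cluster 2, at 0.125 (0.117, 0.136 and 0.122), clear of cluster 3 at 0.0350 and of the other clusters, which had 0.00507 to 0.013. Of the 25 Stab2 UMIs in cluster 3, 15 came from 1 cell of library suffix 1, and library suffix 3 had none. Within cluster 2 Stab2 was less concentrated than Lyve1, since 65 cells with 5 or more UMIs held 26.4% of its RNA. At 5,000 UMIs, 41.8% of cluster 2 cells were positive for Stab1 and 5.24% for Stab2. The share with Stab2 was 0.829% in cluster 5, which shows how often the gene was detected where its level was low.

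**Figure D1:**
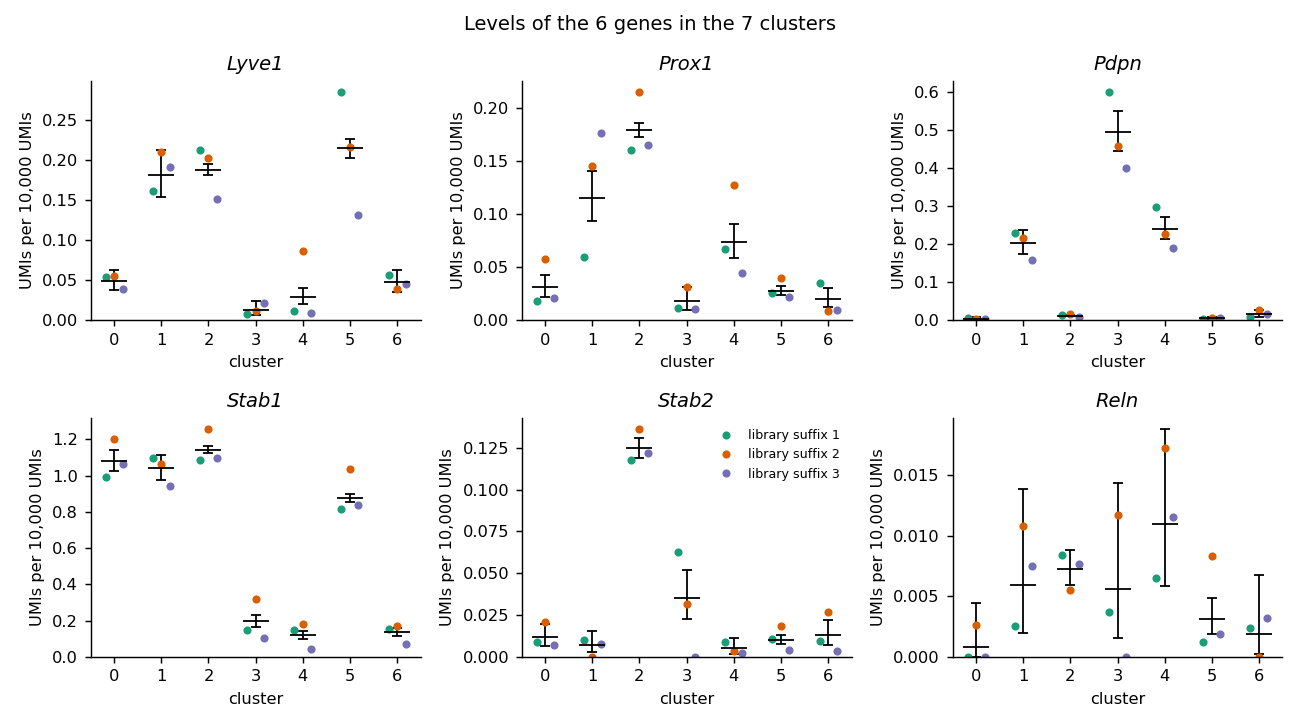
Level of each of the 6 members in clusters 0 to 6, as UMIs per 10,000 UMIs of the cluster on linear axes that differ between panels; the bar across is the whole cluster with its 95% counting interval and the coloured points are the 3 library suffixes. Stab2 is highest in cluster 2 (0.125), Pdpn in cluster 3 (0.496), and Lyve1 is close in clusters 5, 2 and 1 (0.215, 0.188 and 0.182).

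Set against clusters 0 and 1 pooled, cluster 2 held more Stab2, Prox1 and Lyve1 and less Pdpn. Cluster 1 alone was closer to cluster 2: its Lyve1 level was near that of cluster 2 and above it in library suffixes 2 and 3, and its Prox1 level was 0.115 against 0.179 and above it in library suffix 3. The lower Pdpn of cluster 2 rests on cluster 1, since the level of cluster 0 was below that of cluster 2. The log2 ratio of cluster 2 to clusters 0 and 1 together was 3.64 for Stab2 (3.02 to 4.34), from 1753 UMIs against 21, and by library suffix it was 3.61, 3.27 and 4.09. Prox1 had 1.47 (1.22 to 1.73), with 2.11, 1.32 and 1.04 by library. Lyve1 had 0.88 (0.68 to 1.09), with 1.03, 0.94 and 0.63. Pdpn had -2.84 (-3.15 to -2.52) and was lower in every library, though by less, outside this interval, once the deepest 5% of cells were left out. Stab1 was nearly level at 0.10 (0.04 to 0.17). Reln had 1.35 (0.17 to 2.82) from 102 UMIs against 6, of which 5 were in cluster 1, where its level was 0.00594 against 0.00726 in cluster 2. List genes are counted below where they had at least 0.1 UMIs per 10,000 over both groups together, a minimum that the group with more UMIs largely sets. At this minimum 348 of 8092 genes (4.30%) were at least 2-fold higher in cluster 2 and 729 (9.01%) lower. The members are given by their values and not as a count, since Prox1 and Stab2 passed only through cluster 2, with 0.0648 and 0.01 in clusters 0 and 1, and Pdpn and Reln did not pass. Among the 3968 genes with at least 0.5 UMIs per 10,000 in either group, 158 (3.98%) were at least 2-fold higher in cluster 2 and 487 (12.3%) at least 2-fold lower.

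Other genes of the same vessels did not move as a block. Of 13 lymphatic genes 10 had at least 0.1 UMIs per 10,000 over both groups. Of these 2 were at least 2-fold higher in cluster 2, namely Mmrn1 (multimerin-1, 2.25) and Nr2f2 (the venous and lymphatic regulator COUP-TFII, 2.01). Another 2 were lower, namely Gata2 (-1.41) and Foxc2 (a regulator of lymphatic valves, -1.50). The lower Foxc2 rests on cluster 0, at 0.718, since cluster 1 had 0.180 and cluster 2 had 0.178. Angpt2 (angiopoietin-2, -3.11) is given as a value. It was at 0.0520 in cluster 2, 0.0397 in cluster 0 and 1.06 in cluster 1. It passed only through cluster 1, which fixes the direction of the pooled ratio. The list had a median of -0.07, against -0.06 over all genes at this minimum. Flt4 (VEGFR-3, the receptor of the lymphatic growth factor VEGF-C) had 0.67. Of 13 sinusoidal genes 3 reached the minimum, and Clec1b, the gene of CLEC-2, was higher (2.82) while Ehd3 had -0.54 and Gpr182 -0.24. Below it, Oit3 had 3.86, Bmp2 -1.86 and Fcgr2b, the Fc receptor of liver sinusoids, -7.79. Bmp2 and Fcgr2b were at 0.622 and 0.465 in cluster 1 but at 0.0143 and 0.00397 in cluster 0. Cluster 2 had 0.0707 of Bmp2, above cluster 0. In the same contrast the ligand gene Vegfc had -3.03 and the hyaluronan receptor gene Cd44 -4.40, while Hmmr, a hyaluronan receptor gene that also rises in dividing cells, had 1.15. All 5 cycling genes listed (Mki67, Top2a, Cdk1, Ccnb1, Birc5) were higher in cluster 2. Of 2 measured macrophage genes Tyrobp was lower there (-4.74), as was C1qb (-4.07), which was below the minimum. Tyrobp was at 0.0265 in cluster 2, 0.0278 in cluster 0 and 1.72 in cluster 1, and also passed only through cluster 1. C1qb was at 0.0297, 0.0365 and 1.19 in clusters 2, 0 and 1. What part cell division, or macrophage RNA in cluster 1, had in the members' ratios was not tested.

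Single cells of cluster 2 showed which members were held together. Of its 5377 cells with enough depth, 2783 had no member at 5,000 UMIs, 2086 had 1, 416 had 2, 83 had 3 and 9 had 4. Lyve1 was linked to Stab2: 66 of 294 Lyve1-positive cells had Stab2 (22.4%, 17.8 to 27.7), against 4.25% of Lyve1-negative cells (3.71 to 4.84). In library suffixes 1, 2 and 3 these shares were 18.9% against 4.05%, 26.2% against 4.15% and 19.1% against 4.75%. Lyve1 was also linked to Prox1, which was in 52 of the 294 cells (17.7%, 13.5 to 22.5) against 5.51% of the rest, with 23.6% against 4.00%, 16.3% against 7.14% and 8.51% against 4.57% by library. In library suffix 3 only 4 cells held both, and the intervals overlapped.

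Prox1 and Stab2, in contrast, were not detected together more often than apart. Stab2 was in 17 of 332 Prox1-positive cells (5.12%, 3.01 to 8.07) and in 5.25% of Prox1-negative cells (4.65 to 5.90), and the 2 shares lay within each other's intervals in all 3 libraries. Another random draw of 5,000 UMIs per cell gave a log2 ratio of these shares of -1.19, in place of -0.04, so no direction is read from this pair. Pdpn and Reln, both rare, went with Prox1. Pdpn was in 11 of the 332 Prox1-positive cells (3.31%, 1.67 to 5.85) against 0.396% without Prox1, a log2 ratio of 3.06 that was 4.67 without library suffix 2, and in 2 of 294 Lyve1-positive cells (0.680%) against 0.571% without Lyve1. Seen from Pdpn, 11 of its 31 positive cells held Prox1 (35.5%, 19.2 to 54.6), 5 of 9, 3 of 17 and 3 of 5 by library. Reln was in 10 Prox1-positive cells (3.01%) against 0.178% without Prox1, and 10 of 19 Reln-positive cells held Prox1. Stab1 was more frequent beside each of the others, in 63.6% of cells with Prox1 against 40.3% without, 57.5% with Lyve1 against 40.8% and 51.1% with Stab2 against 41.2%.

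**Figure D2:**
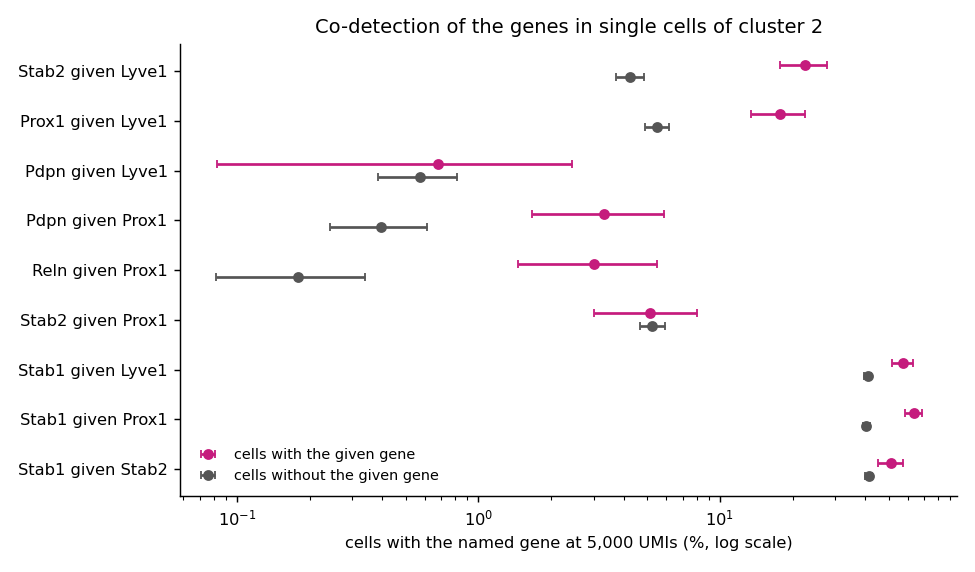
Share of cluster 2 cells in which a member was detected among cells with and without another member, after 5,000 UMIs had been drawn from each cell, on a log axis of percent; bars are 95% counting intervals. Stab2 is in 22.4% of cells with Lyve1 and 4.25% without. With and without Prox1 it is in 5.12% and 5.25% in this draw, and no direction is read, since this ratio moved with the random draw.

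Lyve1-positive cells of cluster 2 held more Stab2, Prox1 and Reln than Lyve1-negative cells. Stab2 was at 0.577 UMIs per 10,000 in these 294 cells and 0.102 in the other 5083, a log2 ratio of 2.50 (2.33 to 2.66), with 2.82, 2.53 and 2.04 by library. Prox1 had 2.10 (1.95 to 2.25), Reln 2.22 (1.42 to 2.95), Stab1 0.73 (0.65 to 0.82) and Pdpn 0.22 (-0.93 to 1.19). Of 13 sinusoidal genes only Clec1b had 0.1 UMIs per 10,000 in both groups, and it was lower in Lyve1-positive cells (-1.02). At 0.1 over both groups together 50 of 7893 genes (0.633%) were higher and 61 (0.773%) lower. Another 7 sinusoidal genes reached 0.1 in the Lyve1-positive cells alone, which fixes their direction, and are given as values without a count: Ehd3 (3.57), Gpr182 (a chemokine-binding receptor, 2.83), Mrc1 (the mannose receptor, 4.32), Oit3 (3.89), the transcription factor genes Maf (3.12) and Gata4 (3.09) and Bmp2 (1.35). F8 had 0.83. Clec4g, Fcgr2b, Wnt2 and Dnase1l3, genes known from liver sinusoids, were rare in both groups, at 0.00451, 0.00301, 0.00301 and 0.0150 in Lyve1-positive and 0.000972, 0.000748, 0.000897 and 0.000598 in Lyve1-negative cells, and only Dnase1l3, with 10 UMIs against 8, had a ratio whose interval lay above 0 (4.65, 3.16 to 6.20). At 0.5 UMIs per 10,000 in the higher group, 29 of 3465 genes (0.837%) were higher and 11 (0.317%) lower.

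Mrc1 and Maf are also macrophage genes. The defining macrophage genes were near 0 in the same cells, with C1qb at 0.0361 and 0.0293 in Lyve1-positive and Lyve1-negative cells, Csf1r at 0.00601 and 0.00972, and Tyrobp at 0.0316 and 0.0262. Cd163 had no UMI in either, but it was at only 0.0018 in cluster 5, so nothing is read from its absence. Pan-endothelial genes were level, with Cdh5 at 4.44 and 4.28 and Cldn5 at 6.60 and 6.58. Of 9 measured lymphatic genes only Foxc2 was at least 2-fold higher (1.56), and Nrp2, the VEGF-C co-receptor, and Nr2f2 had 0.75 and 0.90. The 10 largest ratios that had the same direction in each library also included Cavin2 (2.38), Edn1 (endothelin-1, 2.19), Gsg1 (1.98) and Colec12 (a collectin scavenger receptor, 1.97). The lowest were Vwa1 (-2.48), Lef1 (-1.70), Cdh2 (N-cadherin, -1.59), Bok (-1.26) and Pdgfb (-1.25).

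Stab2-positive cells held more Lyve1 and no more Prox1. In 282 cells with Stab2 against 5095 without, Lyve1 had a log2 ratio of 3.19 (3.07 to 3.31), close over libraries at 3.20, 3.39 and 3.02, and Prox1 had -0.53 (-0.86 to -0.22). Of the sinusoidal genes Gpr182 (2.27) and Clec1b (-0.52) had 0.1 UMIs per 10,000 in both groups, and at 0.1 over both groups together 21 of 7893 genes (0.266%) were higher and 26 (0.329%) lower. Those that reached 0.1 in the Stab2-positive cells alone are given as values: Ehd3 had 3.38, Mrc1 3.71, Oit3 3.25, Maf 2.85, Gata4 2.69 and Bmp2 1.30. None of 9 measured lymphatic genes was 2-fold higher or lower. The cells with Lyve1 and those with Stab2 overlap, so these splits are not independent of each other.

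Prox1-positive cells held more Pdpn and Reln, and more Nrp2 and Foxc2 of the listed lymphatic genes. Their Pdpn level was 0.0961 UMIs per 10,000 against 0.00671, a log2 ratio of 3.84 (3.38 to 4.30), with 4.32, 2.47 and 5.28 by library. Reln was at 0.0858 against 0.00256 (5.06, 4.45 to 5.71), with 5.32, 4.64 and 5.29. Lyve1 had 1.81 (1.66 to 1.95), Stab1 1.09 (1.01 to 1.16) and Stab2 -0.52 (-0.89 to -0.17). Among 9 measured lymphatic genes Nrp2 (1.34) and Foxc2 (1.30) were at least 2-fold higher and none was lower, with a median of 0.62 against 0.01 over all genes. Flt4 had 0.56 and Mmrn1 0.75. Below the minimum, Ccl21a (the chemokine that draws dendritic cells into lymphatics) had 5.72, and Thy1 had 44 UMIs against 98, a ratio of 2.93. Of 7893 genes at this minimum 35 (0.443%) were higher and 68 (0.862%) lower, and at 0.5 UMIs per 10,000 in the higher group the counts were 19 (0.551%) and 18 (0.522%) of 3447. Of the sinusoidal genes Clec1b had -0.87 and Ehd3 -0.82. Of 7 listed genes of arteries 5 were measured and 3 were at least 2-fold lower, namely Gja4 (connexin 37, -1.58), Hey1 (a Notch target, -1.76) and Dll4 (a Notch ligand, -1.09), while Sox17 had -0.56 and Efnb2 -0.77. Below the minimum, Gja5 had -1.90 and Bmx 0.40. The largest ratios by rule were those of Nts (neurotensin, 3.01), Nnat (2.30), Plau (urokinase, 1.77), Edn1 (1.73) and Rnf141 (1.66).

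Splits by Pdpn and by Reln use the same cells that held these genes with Prox1 above, so they are not independent of those results. The 31 Pdpn-positive cells had Prox1 at 1.97 UMIs per 10,000 against 0.170 (log2 ratio 3.54, 3.28 to 3.79), with 4.14, 1.73 and 3.80 by library. Reln was at 0.188 against 0.00630 and Lyve1 at 0.0869 against 0.188. Library suffix 2 held 17 of these cells, which had no Reln UMI and more Lyve1 than the others of that library, at 0.293 against 0.203. Ptx3 (pentraxin 3, 6.68) and Nts (4.11) led the genes of the Pdpn-positive cells. The 19 Reln-positive cells had Prox1 at 3.23 against 0.169 (4.25, 4.00 to 4.50), close over libraries at 4.65, 4.16 and 3.79. Lyve1 was at 1.28 against 0.185 in them, with unlike log2 ratios of 1.02, 2.66 and 4.03 by library. Stab1 split the cluster into nearly equal profiles: of 3346 genes 0 (0%) were 2-fold higher and 0 (0%) lower in its 2245 positive cells. Prox1, below that minimum, had 1.75 (1.62 to 1.87) there, Lyve1 1.27 (1.15 to 1.38) and Reln 1.88.

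A comparison chosen after the co-detection was seen set 280 cluster 2 cells with Prox1 and no Lyve1 against 242 with Lyve1 and no Prox1, as detected at 5,000 UMIs. At full depth 49 of the Prox1 cells (17.5%) held Lyve1 and 51 of the Lyve1 cells (21.1%) held Prox1. Their median depths were nearly equal, at 19726.5 and 19868.5 UMIs. Stab2 was at 0.0634 UMIs per 10,000 in the Prox1 cells and 0.636 in the Lyve1 cells, a log2 ratio of -3.33 (-3.82 to -2.87). Of the sinusoidal genes Ehd3 had -3.94 and Gpr182 -2.87, and Clec1b 0.14. Oit3 had -4.37, Mrc1 -3.84, Gata4 -2.40, Maf -2.02 and Bmp2 -1.58, genes that did not reach 0.1 UMIs per 10,000 over cluster 2 as a whole. At full depth 28.1% of the Lyve1 cells held Ehd3, 26.0% Oit3, 19.0% Mrc1 and 19.0% Gata4, and single cells held up to 47, 22, 24 and 8 UMIs of them. Ehd3 was also in 14.3% of the Prox1 cells, with no more than 2 UMIs in a cell, so its share of cells differed by less than its level. At 0.5 UMIs per 10,000 in the higher group, 7 of 3474 genes (0.201%) were higher, or 11 without library suffix 2, and 21 (0.604%) lower. Pdpn was higher, at 0.105 against 0.00888 (3.56, 2.27 to 5.23), and Reln at 0.0767 against 0.00711 (3.43, 1.99 to 5.36). Ccl21a had 99 UMIs against 1, all from 18 of the 280 cells. Its sequence has near-identical copies in the mouse genome among which reads cannot be divided with certainty. Nts (2.07), Unc5b (a netrin receptor, 1.75), Nnat (1.73) and Tbx1 (1.54) were also higher. Stab1 differed little, at 2.11 against 1.56.

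The 52 cells with both Prox1 and Lyve1 were close to the Prox1 cells in Oit3 and Ehd3. Oit3 was at 0.0199 in them, against 0.0354 with Prox1 only, 0.730 with Lyve1 only and 0.0424 in the 4803 cells with neither. Ehd3 was at 0.0498, against 0.0649, 0.993 and 0.0723. Stab2 lay between, at 0.254 against 0.0634 and 0.636. Reln was highest in the cells with both, at 0.146, and Stab1 also, at 3.37, followed by 2.11 with Prox1 only, 1.56 with Lyve1 only and 1.05 with neither. Of the lymphatic genes, Nrp2 (4.47), Mmrn1 (1.65), Foxc2 (0.937) and Fxyd6 (2.02) were highest in the cells with both, whereas Flt4 was highest with Prox1 only (1.21 against 0.801 with both), and Ccl21a had no UMI in the cells with both. Library suffix 3 held 4 of these cells, and there Nrp2 was lower with both (2.87) than with Prox1 only (3.55). These splits use the members themselves, so Prox1 and Lyve1 are given no ratio.

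**Figure D3:**
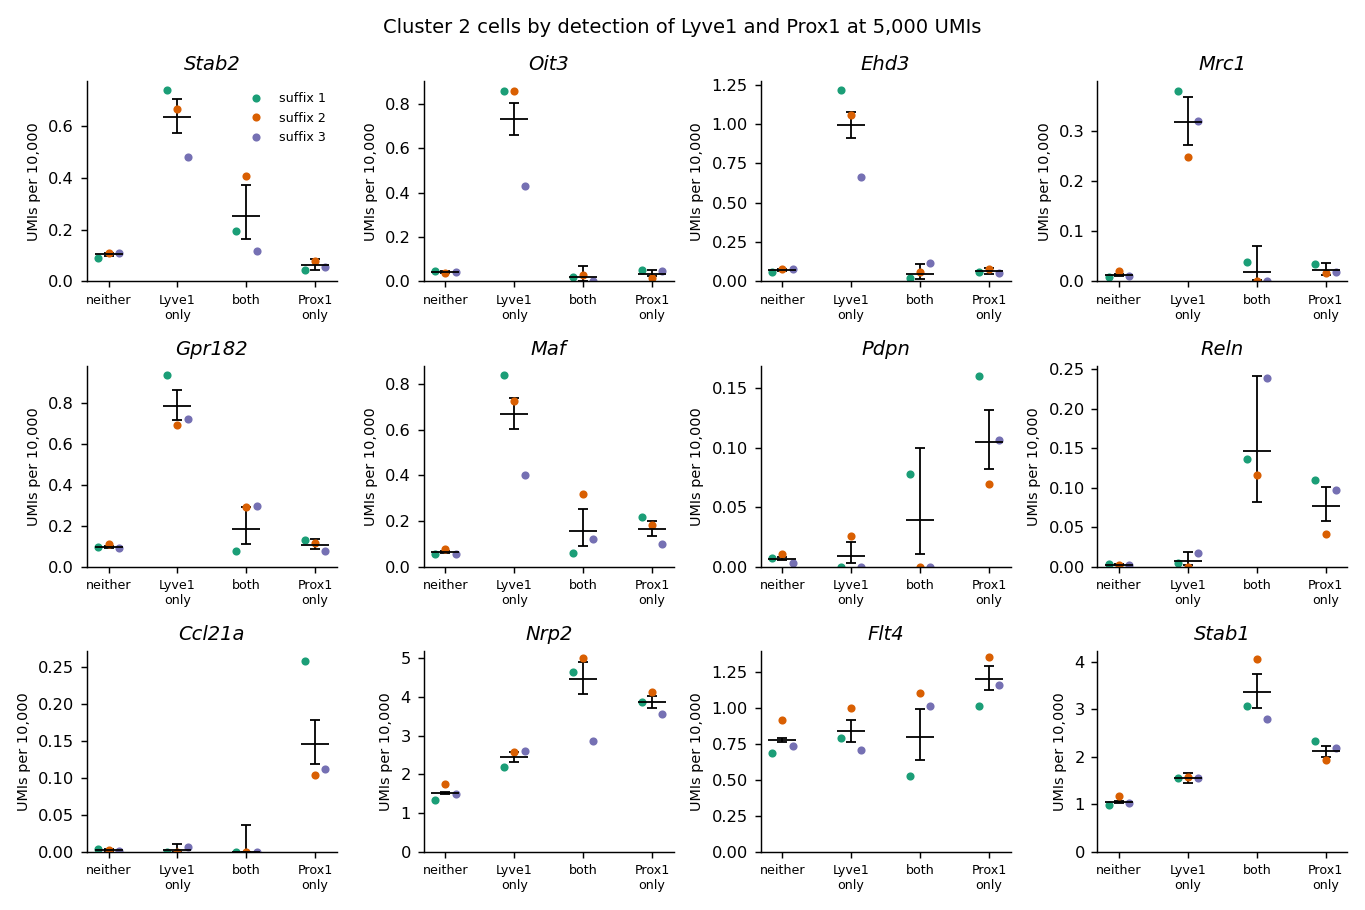
Levels of members and list genes, in UMIs per 10,000 on linear axes that differ between panels, in cluster 2 cells with neither gene (4803), Lyve1 only (242), both (52) and Prox1 only (280); bars are all cells with 95% counting intervals and points the 3 library suffixes. Stab2, Oit3 and Ehd3 stand highest with Lyve1 only (0.636, 0.730 and 0.993), and Pdpn with Prox1 only (0.105).

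Outside cluster 2, Pdpn-positive cells were compared with the rest of clusters 1 and 4, in splits also chosen after the data were seen. In cluster 1, where its level was 0.203, 14 of 22 Pdpn-positive cells held Tyrobp, a signalling adaptor of myeloid cells (63.6%, 40.7 to 82.8), against 8.58% of the others, and 12 held C1qb. Of 11 measured macrophage genes 9 were at least 2-fold higher in them and none lower, and all 8 pan-endothelial genes were at least 2-fold lower, where 397 of 8641 genes (4.59%) were higher and 1490 (17.2%) lower. In library suffix 2 only Pecam1 (-1.51) and Esam (-1.54) were 2-fold lower, and the other pan-endothelial genes had -0.997 (Cdh5) to -0.383 (Egfl7). Of 10 measured lymphatic genes Mmrn1 had 1.81, with -0.15, 1.27 and 3.12 by library. Another 3 were at least 2-fold lower (Gata2 -1.89, Sox18 -1.13 and Fxyd6 -1.09), though Fxyd6 had 0.39 in library suffix 3. Foxc2 had -1.71 (-4.77 to 0.17), from 2 UMIs against 145. It was at 0.0568 in the Pdpn-positive cells and passed only through the others. Stab1 had -1.01, with -4.16, -0.16 and -0.28 by library, so that most of its fall lay in library suffix 1. Prox1 was in 3 of the 22 cells (13.6%) against 2.49% of the others, and 5 held any of Prox1, Lyve1 and Ccl21a. Prox1 was at 0, 0.639 and 3.29 UMIs per 10,000 in the Pdpn-positive cells of library suffixes 1, 2 and 3, and Lyve1 at 0.0664, 0.160 and 3.29, so that the RNA of both lay mostly in library suffix 3, which held 5 of the cells. Ccl21a was in 1 of the 22 cells, and its 45 UMIs were all in that library.

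In cluster 4 the 52 Pdpn-positive cells held more collagen RNA, with 5 of 6 stromal genes at least 2-fold higher, among them Dcn (decorin, 2.37), Col1a1 (2.17) and Col1a2 (1.66), where 225 of 8848 genes (2.54%) were higher and 186 (2.10%) lower. In library suffix 3 these 3 genes were not higher, at -0.11, -0.10 and -0.57. Of 3 measured mesothelial genes Upk3b was higher (1.91, with -0.49 in library suffix 2), and Wt1 (0.87) and Krt19 (0.89, with 1.60, -0.38 and -3.18 by library) stayed below 2-fold. Below the minimum, Upk1b had 2.55, Lrrn4 1.09 and Msln -1.11, the last from 1 UMI against 22.

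Prox1-positive cells of cluster 4, 21 in number, were led by Fgfbp3 (3.39), Edn1 (3.15), Sox3 (2.95) and Pou3f2 (2.30). Of the members, Lyve1 had 5.72 (22 UMIs against 12), Stab1 3.20 and Pdpn 1.11. Of 8 measured lymphatic genes Nrp2 (1.27) and Sox18 (1.16) were at least 2-fold higher. Angpt2 had -1.13, from 2 UMIs against 126. It was at 0.0503 in the Prox1-positive cells and passed only through the other cells. Of 8 pan-endothelial genes Emcn (1.74), Tek (1.66) and Kdr (1.44) were higher and Esam (-1.54) lower. Of 6 stromal genes 3 were lower, each in every library, namely Dcn (-2.81), Col1a2 (-1.49) and Col1a1 (-1.22), and none higher, where 253 of 8849 genes (2.86%) were higher and 583 (6.59%) lower. Library suffix 3 held 2 of these cells, and there Nrp2 had -1.97.

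In cluster 5 Lyve1 and Stab1 belonged to macrophage-like cells, the other population of interest. These were the 739 cells with at least 1 UMI of C1qb, a complement gene of macrophages, at 5,000 UMIs, and 829 cells had none. Of 14 macrophage genes measured over both groups 13 were at least 2-fold higher in them and none lower, though Mrc1, C1qa, C1qc, Aif1 and Adgre1 were under 0.1 UMIs per 10,000 in the rest and passed through these cells, where 524 of 7791 genes (6.73%) were higher and 296 (3.80%) lower. At 0.5 UMIs per 10,000 in the higher group 266 of 3437 genes (7.74%) were higher and 100 (2.91%) lower, and the cells without C1qb were led by neutrophil precursor genes such as Ms4a3 (-9.82), Ngp (-9.80) and S100a9 (-8.06). Lyve1 was at 0.467 UMIs per 10,000 in macrophage-like cells and 0.0136 in the rest, a log2 ratio of 5.11 (4.68 to 5.56), with 4.69, 5.46 and 6.47 by library. Stab1 was at 1.81 against 0.129 (3.81, 3.67 to 3.96), with 3.99, 3.29 and 4.10. Prox1 had 0.0402 against 0.0174, Stab2 0.0107 against 0.01, and Pdpn 0.00700 against 0.00383, with 19 and 13 UMIs. Reln had 3 UMIs against 16. Macrophage-like cells thus held 2 of the 6 members at levels above those of cluster 2, Lyve1 by a log2 ratio of 1.31 (1.21 to 1.41) and Stab1 by 0.66 (0.62 to 0.71), and held less Prox1 (-2.15, -2.44 to -1.88) and Stab2 (-3.54, -4.13 to -3.02). In that contrast 402 of 3803 genes (10.6%) were 2-fold higher and 554 (14.6%) lower.

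The ratio of Stab1 to Cdh5, a gene of endothelial junctions, differed between these populations. Per UMI of Cdh5 there were 3.57 of Stab1 in macrophage-like cells, 0.199 in the rest of cluster 5, 0.266 in cluster 2 and 0.116 in cluster 0. For Lyve1 the values were 0.921, 0.0209 and 0.0439 in macrophage-like cells, the rest of cluster 5 and cluster 2.

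Lyve1 was in 78 of the 739 macrophage-like cells at 5,000 UMIs (10.6%, 8.43 to 13), against 1.09% of the rest of cluster 5, and 67 cells with 5 or more UMIs held 88.9% of its RNA there. Stab1 was in 53.2%, against 7.60%. The receptors were held together: 64 of the 78 Lyve1-positive cells had Stab1 (82.1%, 71.7 to 89.8) against 49.8% of the others (45.9 to 53.7), with 87.5% against 49.2%, 81.8% against 48.9% and 69.2% against 52.5% by library. In library suffix 3, with 13 Lyve1-positive cells, the intervals overlapped. Prox1 was in 1 of the 78 cells and Stab2 in 3. No Lyve1-positive cell had a UMI of Pdpn or Reln at this depth, which allows a share of cells with a UMI of up to 4.62% and sets no limit on the share that expresses either gene.

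The Lyve1-positive macrophage-like cells had Stab1 at 3.31 UMIs per 10,000 against 1.65 in the 661 others, a log2 ratio of 1.0 (0.90 to 1.11), with 1.30, 0.76 and 0.77 by library. Stab2 had 15 UMIs against 14, of which library suffix 1 held most and library suffix 3 none in the Lyve1-positive cells. Of 16 macrophage genes with 0.1 UMIs per 10,000 over both groups, 3 were at least 2-fold higher, namely Timd4 (a receptor for dying cells, 1.96), Mrc1 (1.40) and F13a1 (coagulation factor XIII, 1.20). The 16 include H2-Aa (an MHC class II chain), which had 1 UMI against 315 and is given as a value. It passed only through the Lyve1-negative cells, which fixes its direction. Below that minimum, Folr2 (folate receptor beta) had 2.80 and Ccr2 (a chemokine receptor of monocytes) -1.82. C1qb (0.45) and Tyrobp (0.00) stayed below 2-fold. Pf4 (2.44), Fcna (ficolin A, 2.16), Hmox1 (haem oxygenase, 2.01), Slc40a1 (the iron exporter ferroportin, 1.90) and Msr1 (a scavenger receptor, 1.53) were among the largest ratios, and Prtn3 (a granule protease, -1.86) and Plac8 (-1.59) the lowest. At 0.1 UMIs per 10,000 over both groups, 64 of 7639 genes were higher (0.838%) and 53 lower (0.694%), and at 0.5 in the higher group there were 39 (1.19%) and 8 (0.245%) of 3270, where the genes lower numbered 19 without library suffix 1 and 14 without library suffix 2. Splitting by Stab1 gave Lyve1 2.33, Cxcl2 2.02, Pf4 1.98 and Mrc1 1.45, where 33 of 3227 genes (1.02%) were higher and 7 (0.217%) lower. These led the genes with at least 0.5 in the higher group and 1 direction in every library. Over all macrophage-like cells Lyve1 was below 0.5, so it passed only through the Stab1-positive cells. This split uses the same cells as the shares of Lyve1 and Stab1 above and is not independent of them.

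**Figure D4:**
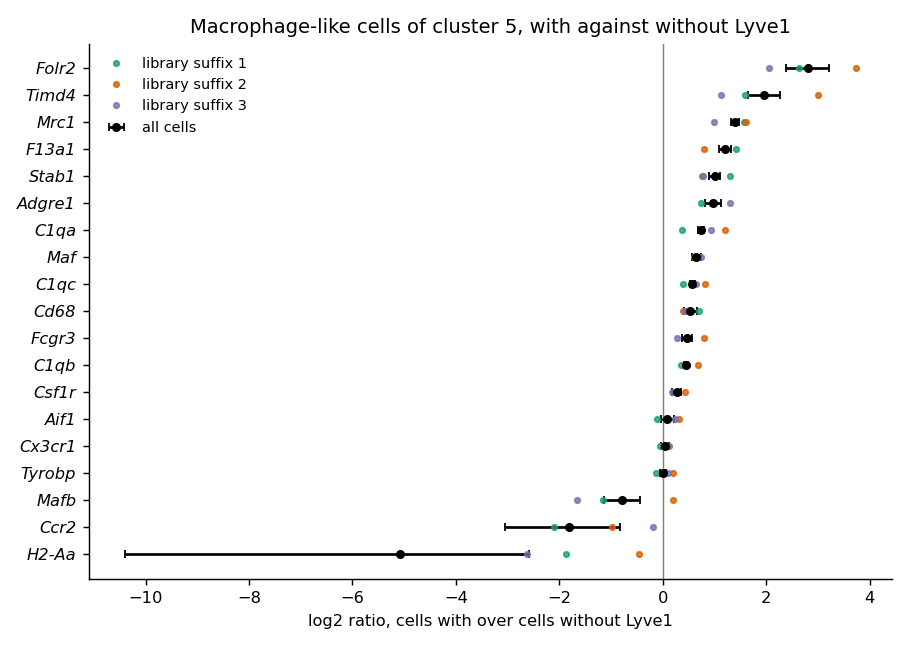
Log2 ratios of Lyve1-positive to Lyve1-negative macrophage-like cells of cluster 5 for members and macrophage genes, with 95% counting intervals and the 3 library suffixes as coloured points, which for H2-Aa are limits from 3 UMIs where a library had none. Folr2 (2.80), Timd4 (1.96) and Stab1 (1.0) lie to the right of 0, and Ccr2 (-1.82) to the left.

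Over 21 sums (7 clusters by 3 library suffixes) the genes most like each member were ranked by Pearson's correlation of log2 levels, as a description over sums that share libraries and depth. Closest to Stab1 were Abi3 (0.96), Glud1 (0.94) and the endothelial surface gene Cd34 (0.91). Pdpn had Socs2 (0.93) and Ddt (0.88), Prox1 had Gm13889 (0.89), Ccnd1 (cyclin D1, 0.89) and Nrp2 (0.84), and Lyve1 had Rab35 (0.88), Arhgdia (0.88) and Myc (0.87). Stab2 had weaker companions, Lipt2 (0.78) first, and Reln had Nr2f2 (0.76). Among members the values were 0.74 for Lyve1 and Stab1, 0.65 for Prox1 and Reln, 0.55 for Lyve1 and Prox1 and 0.18 for Lyve1 and Stab2. Pdpn had -0.47 with Lyve1, -0.47 with Stab1, -0.22 with Stab2, 0.04 with Prox1 and 0.41 with Reln.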

How the data were processed

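Single-cell 3′ libraries of 3 pools (10x Genomics v3) were made by the authors, who per the labels aligned to mm10 with Cell Ranger 3.1.0 (Seurat 3.1.5 is also listed). They deposited UMI counts per gene and cell, natural log values of CPTT + 1, where CPTT scales each cell to 10,000 UMIs, and Leiden cluster numbers. The log values were recomputed from the counts with a largest difference of 5.3e-15, and served only an alternative. GENCODE M21 (GRCm38) named 27645 of 27998 genes, and counts of 4 equal names were summed. Although the study states a minimum of 5,000 UMIs, 90 deposited cells lay below it and stayed in levels but not in splits. Doublets were not called, and leaving out the deepest 5% of cells was tried.

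Summed counts were compared in Python 3.11.15 (numpy 2.4.6, scipy 1.17.1, pandas 2.3.3) with exact Poisson intervals for levels, exact Clopper–Pearson intervals for shares and conditional binomial intervals for ratios, and the steps were tested on simulated data. A cell was positive with at least 1 UMI after 5,000 had been drawn (random seed 1). Genes needed 0.5 UMIs per 10,000 in the higher group, and list genes were counted at 0.1 over both groups together, a minimum set after the data were seen. Named were the members, genes of the lists, and the 10 largest ratios each way with 1 direction in every library. Members and lists were chosen with earlier results of these data known. The planned comparison of protein sequences was not made here. The Prox1-only comparison, the Pdpn and Prox1 splits outside cluster 2 and the ratios to Cdh5 were added after the data were seen. A detail of the adult mice and of the gate used to sort their cells is not reported here.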

Additional observations from a re-analysis of the deposited data

How the results depend on the processing

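Of 361 values under alternatives, 271 stayed within the margin of their main value, 90 moved and 0 were reversed. A reversal was counted only for ratios whose main interval left out 0. A change of sign in any other ratio was counted as the same or as moved. No paired analysis was possible because the labels tie no library suffix to a pool, so that the suffixes are not labelled replicates. The planned edgeR and DESeq2 tests were not run for the same reason, and values by suffix stand in their place. Leaving out each library suffix in turn gave, for the log2 ratio of cluster 2 to clusters 0 and 1, 1.18 to 1.71 for Prox1. For macrophage-like cells against the rest of cluster 5 it gave 4.86 to 5.90 for Lyve1 and 3.68 to 4.04 for Stab1. For the shares in cluster 2 it gave 1.19 to 2.17 for Prox1 with Lyve1 and 2.38 to 4.67 for Pdpn with Prox1, the highest value without library suffix 2. Genes lower in Lyve1-positive macrophage-like cells numbered 9 to 19, against 8 with all cells, with 19 without library suffix 1 and 14 without library suffix 2. Between Prox1-only and Lyve1-only cells the genes higher numbered 6 to 11, with 11 without library suffix 2, and Oit3 had -4.83 to -3.77. Without the deepest 5% of cells, Prox1 had 1.8 and Pdpn -2.09 in cluster 2 against clusters 0 and 1, and Lyve1 5.61 and Stab1 4.01 in macrophage-like cells. With the mean of CPTT over cells, Pdpn had -2.21 and Stab1 0.18 in cluster 2 against clusters 0 and 1. Drawing 10,000 UMIs gave 1.72 for the share with Stab2 by Lyve1 in cluster 2 and 0.46 for Stab1 by Lyve1 in macrophage-like cells, and random seed 2 gave 2.0 for Stab2 by Lyve1 and -1.19 for Stab2 by Prox1. Asking for 2 UMIs in a positive cell gave 3.55 for Stab1 in macrophage-like cells, 52 genes higher and 17 lower with Lyve1 in cluster 2, and 16 lower with Lyve1 in macrophage-like cells. A minimum of 0.1 UMIs per 10,000 gave 631 and 382 genes higher and lower in macrophage-like cells, 113 and 62 with Lyve1 in cluster 2 and 108 and 59 with Lyve1 in macrophage-like cells, where more genes were tested. A 1.5-fold limit gave 445 and 249, 68 and 48, and 106 and 33. With 2 UMIs at 10,000 UMIs, an alternative added after the data were seen, Prox1-only against Lyve1-only cells had 25 genes higher and 94 lower, Stab2 -4.98 and Oit3 -6.83. Beyond the settings that name their own cause, the cause was not tested. At this depth shares under 1% of cells, as for Pdpn and Reln in cluster 2, rest on fewer than 40 cells.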
